A study of Rattus norvegicus with 20 samples.

Results

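Oacyl and Wdr64 are 2 little-described genes of the 32402 Ensembl genes measured in the rat supraoptic nucleus (SON). They were chosen by their own dehydration changes, since both are among the genes with the largest rises at both ages, and the tables name Oacyl as ENSRNOG00000024640 and Wdr64 as ENSRNOG00000038083. RNA-seq of SON punches was carried out in 20 male Wistar Han rats, with 5 rats in each of 4 groups. Adult rats were 3 months old and aged rats 18 months old, and at each age rats were euhydrated (EH, free access to water) or dehydrated (DH). The sample labels give DH as 2 days and the methods of the study as 72 h without water. The labels name no transgene or deletion, each library came from 1 rat, and a punch holds the glia, vessels and neighbouring neurons of the SON as well as its magnocellular neurons.

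Magnocellular neurons of the SON make the peptide hormones vasopressin (Avp) and oxytocin (Oxt) and release them from the posterior pituitary into the blood. When plasma becomes concentrated, as it does without water, these neurons fire more, release more hormone and enlarge their machinery for peptide synthesis and secretion. Oacyl is named for its likeness to the O-acyltransferases, enzymes that attach an acyl group to a hydroxyl group of a lipid, peptide or protein. Wdr64 is named for its WD repeats, which fold into a propeller that other proteins dock onto, and its own role is not established.

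The sequences around the transcription start are shown because the RNA of both genes rose with DH. They are the RefSeq windows on assembly GRCr8, which is not the Rn6 assembly of the files, from 250 bases before to 50 bases after an annotated start. The Oacyl window lies at chr18:61482087-61482386 on the plus strand and has 48.7% GC. The first of 2 windows listed for Wdr64 lies at chr13:90185559-90185858 on the plus strand, has 53% GC and falls inside the gene rather than at its outer end. Capitals mark motif matches, which are the CRE half-site TGACG and the TonE core TGGAAA (reverse strand, TTTCCA) in Oacyl, and TATAAA in Wdr64.
Oacyl: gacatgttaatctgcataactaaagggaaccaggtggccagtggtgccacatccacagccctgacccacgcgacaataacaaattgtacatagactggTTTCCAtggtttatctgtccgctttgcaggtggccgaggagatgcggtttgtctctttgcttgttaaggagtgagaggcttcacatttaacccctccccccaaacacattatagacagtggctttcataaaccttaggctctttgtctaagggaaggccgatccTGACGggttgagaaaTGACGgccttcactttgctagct
Wdr64: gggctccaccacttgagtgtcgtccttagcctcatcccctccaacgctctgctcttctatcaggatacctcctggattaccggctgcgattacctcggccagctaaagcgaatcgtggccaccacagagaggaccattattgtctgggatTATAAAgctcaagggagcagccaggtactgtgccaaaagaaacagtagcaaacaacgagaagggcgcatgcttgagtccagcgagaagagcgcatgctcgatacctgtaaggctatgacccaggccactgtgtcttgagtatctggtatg

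Both strands were searched for 6 motifs. The Oacyl window held 2 copies of TGACG, the shorter form of the site of CREB-family factors, starting 13 and 28 bases into the transcript, counting the start as 1. At least 1 copy was found in 21.2% and at least 2 in 4.96% of the 33469 windows of the same length. The TGGAAA match, the core of the site of the tonicity-responsive factor NFAT5, began 152 bases before the start, and 22.7% of windows held it. The TATAAA match of Wdr64 began 100 bases before the annotated start of that window, and 14.2% of windows held it. Since this window lies inside the gene, the match may fall in transcribed sequence, and a role in starting transcription was not tested. The AP-1 site TGANTCA (7.33% of windows), the whole CRE TGACGTCA (1.83%, which contains the half-site) and the Egr site GCGNGGGCG (4.98%) had no match in the Oacyl window or in either Wdr64 window.

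Values are normalised counts, that is, reads per gene divided by a size factor of the library. There are 3 tables (adult DH against adult EH, aged DH against aged EH, and aged EH against adult EH), each with size factors of its own. Levels of 1 rat therefore differ slightly between tables. In all 3 tables the values were whole multiples of 1 step per library, but reads per gene were recovered for the adult DH table only. Their totals were 25605517 to 28491926 in adult EH and 24268398 to 27641153 in adult DH rats. Avp and Oxt, the defining markers of the magnocellular neurons, summed to 193899 to 366536 normalised counts in the 10 adult rats and to 247080 to 473621 in the 10 aged rats. Of 6 markers of cortical and amygdala glutamatergic neurons, 3 were lower in aged DH than in aged EH by limma with Benjamini-Hochberg adjustment (Slc17a7, Neurod6 and Neurod2, LFC -1.86 to -2.49), and the 6 summed to 864 to 1620 in aged DH against 1676 to 4062 in aged EH rats. In adult rats none of the 6 was called and the sums overlapped (920 to 2332 in DH, 953 to 3099 in EH). The 4 blood genes had LFCs below 0 at both ages, with Hba-a1 called in adult DH and Hbb in aged DH. Of all genes tested, 12.7% were called in adult DH and 7.29% in aged DH. The part of these markers in the changes of Oacyl and Wdr64 was not tested.

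The RNA of Oacyl was many times higher in DH than in EH rats at both ages. In adult EH rats 1, 2, 4, 5 and 6 its normalised counts were 456, 94.3, 100, 748 and 496. In adult DH rats 1 to 5 they were 5171, 3194, 3441, 1172 and 2716. Every adult DH rat was above every adult EH rat, although rat 4 of the DH group stood below the rest of its group and 2 of the EH rats stood near 100, well below the other 3. The group means were 379 ± 281 in EH and 3139 ± 1438 in DH (SD, n = 5), a ratio of means of 8.28 and of medians of 7.0. On the scale of log2(normalised count + 1), the log2 fold change (LFC) of adult DH was 3.35 with a standard error of 0.552. In a bulk punch, more cells with a transcript and more transcript per cell cannot be told apart, and this applies to every change given here.

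In aged EH rats 1, 2, 4, 5 and 6 the normalised counts of Oacyl were 148, 151, 271, 126 and 103. In aged DH rats 1, 2, 3, 5 and 6 they were 3455, 983, 4086, 847 and 1025. The groups did not overlap, and the DH rats fell into 2 levels, with rats 1 and 3 at more than 3 times the level of the other 3. The means were 160 ± 65.4 in EH and 2079 ± 1561 in DH (SD, n = 5). The ratio of means was 13.0, whereas the ratio of medians was 6.91, because rats 1 and 3 weigh on the DH mean. The LFC of aged DH was 3.44 (SE 0.411), and it exceeded the LFC of adult DH by 0.09 (SE 0.770), a difference smaller than its error.

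In adult rats the rise of Wdr64 was more even between rats. In adult EH rats 1, 2, 4, 5 and 6 its normalised counts were 20.2, 22.9, 37.1, 32.4 and 32.8, and in adult DH rats 1 to 5 they were 251, 236, 216, 223 and 183. The lowest DH rat was far above the highest EH rat. The means were 29.1 ± 7.19 and 222 ± 25.3 (SD, n = 5), a ratio of 7.63, and the LFC was 2.92 (SE 0.165).

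In aged rats Wdr64 had a similar mean in DH but a higher mean in EH than in adult rats, in tables scaled separately. In aged EH rats 1, 2, 4, 5 and 6 the normalised counts were 51.2, 32.0, 107, 58 and 39.4, and in aged DH rats 1, 2, 3, 5 and 6 they were 249, 177, 296, 198 and 174. Rat 4 was the highest of the aged EH group, as it was for Oacyl, and rat 3 was the highest of the aged DH group for both genes. The means were 57.6 ± 29.7 in EH and 219 ± 52.5 in DH (SD, n = 5), a ratio of 3.80, and the LFC was 2.00 (SE 0.261). The LFC of aged DH was lower than that of adult DH by 0.91 on the log2 scale (-0.91, SE 0.335). This difference was given no test, since the genes were chosen by both dehydration changes, and limma called 0 of 15326 genes for a difference between the ages (1522 at an unadjusted p under 0.05).

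**Figure D1:**
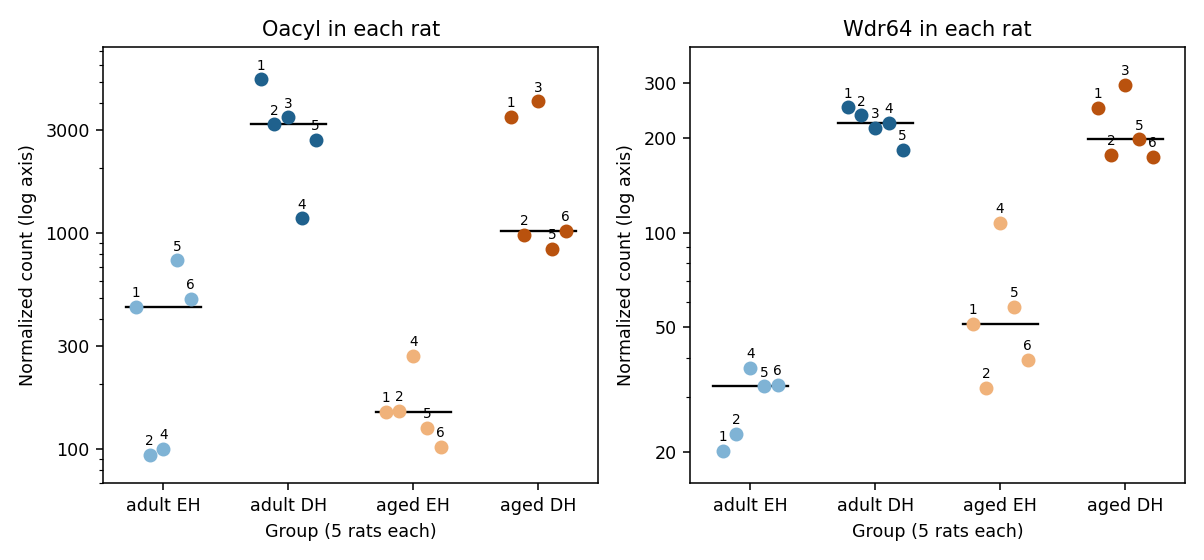
Normalised counts (log axis) of Oacyl and Wdr64 in each of the 20 rats, from the dehydration table of their age, with the replicate number above each point and a line at the median of the group. For both genes all DH points lie above all EH points at each age, and the DH points of aged rats 1 and 3 stand above the others.

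The absence of overlap between DH and EH rats is part of what made the genes candidates. Among all genes tested, all 5 DH rats were above all 5 EH rats in 6.81% of 15280 genes in the adult comparison and in 4.12% of 15346 genes in the aged comparison. In order of LFC, Oacyl was rank 3 in adult DH and rank 1 in aged DH, and Wdr64 was rank 5 and rank 7. In adult DH the neighbours in this order were Fosl1, an AP-1 subunit (LFC 3.40), just above Oacyl, Tnfaip6, a hyaluronan-binding protein (2.99), between the pair, and Plaur, the urokinase receptor (2.66), just below Wdr64. In aged DH the next LFC below Oacyl was 2.84 for a gene without a symbol, ENSRNOG00000017412, and Wdr64 stood between another such gene, ENSRNOG00000058510 (2.01), and Plaur (1.99). The SE of Oacyl in adult DH (0.552) exceeds its gap to both of its neighbours in this order.

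**Figure D2:**
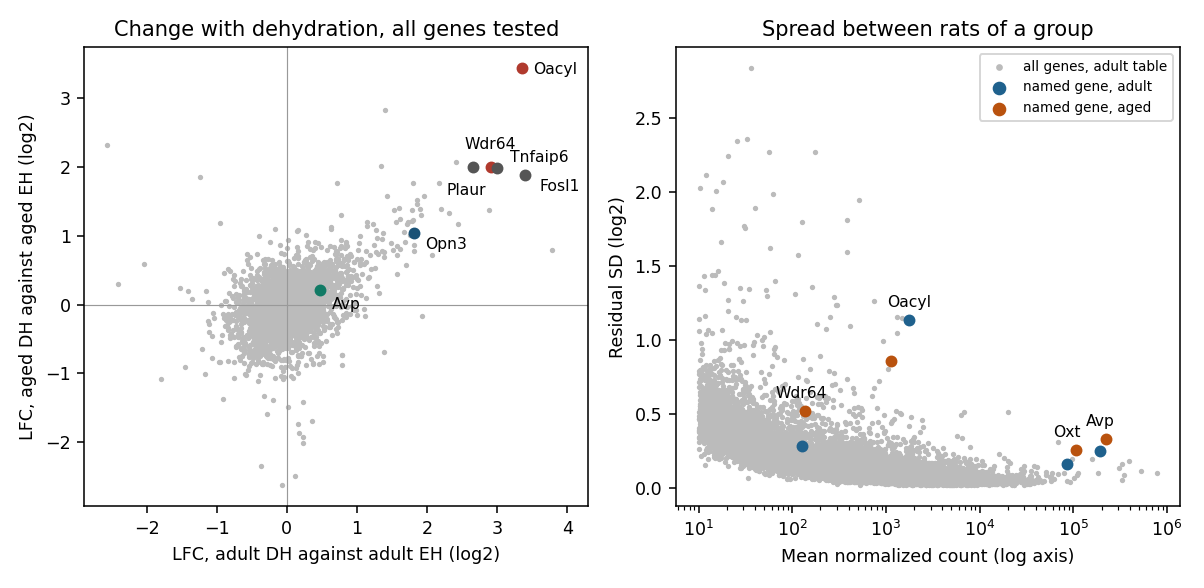
Left, LFC of adult DH (x) against LFC of aged DH (y) for all genes tested at both ages, on a log2 scale; Oacyl lies at 3.35 and 3.44 and Wdr64 at 2.92 and 2.00, with Opn3 and Avp marked for comparison. Right, residual SD between rats of a group (log2) against mean normalised count (log axis) for all genes of the adult table, with 4 genes at their adult and aged values; Oacyl stands at 1.13 and 0.857, above most genes of its level.

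Pooled over the EH and DH groups of each age, the spread between rats was wider for Oacyl than for Wdr64. The residual SD within groups on the log2 scale was 1.13 for Oacyl in the adult table and 0.857 in the aged table, against medians over all genes of 0.106 and 0.112. These values were above those of 99.6% and 99.4% of genes tested. Genes with few reads vary more, but among genes with a mean within a factor of 2 of its own, Oacyl still stood at the 99.9 percentile in both tables. For Wdr64 the residual SD was 0.283 in the adult table (percentile 84.8) and 0.518 in the aged table (95.8), and among genes of similar mean the percentiles were 85.9 and 97.9. The highest Oacyl value was 7.94 times the lowest within adult EH, 4.41 times within adult DH, 2.64 times within aged EH and 4.82 times within aged DH. For Wdr64 these ratios were 1.84, 1.37, 3.36 and 1.70. Within aged EH the order was thus the other way, with a coefficient of variation of 51.5% for Wdr64 and 40.9% for Oacyl.

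In adult rats, read counts show how much of this spread counting error could give. For aged rats this was not computed. The adult EH values of Oacyl rested on 99 to 739 reads, for which counting alone gives a coefficient of variation of 3.68% to 10.1%, whereas the rats differed by 74.0%. In adult DH the values rested on 1044 to 5345 reads (1.37% to 3.09%), and the coefficient of variation between rats was 45.8%. Wdr64 in adult EH rested on 21 to 40 reads, for which counting alone gives 15.8% to 21.8%, against 24.7% between rats. Differences among adult EH rats in Wdr64 are therefore close to what this depth can resolve. In adult DH, with 172 to 259 reads, counting gives 6.21% to 7.62%, and the rats differed by 11.4%.

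Whether ageing moved the genes in rats with water was tested between aged EH and adult EH. These libraries are also the controls of the dehydration comparisons that chose the genes, so the p-values are not independent of that choice. In the table of this comparison the Oacyl counts of adult EH rats were 475, 98.1, 105, 780 and 517, and those of aged EH rats were 149, 151, 271, 126 and 103, in the order of rats given above. The groups overlapped, because adult rats 2 and 4 lay at the level of the aged rats. The LFC was -0.92 (SE 0.509), with an unadjusted p of 0.0912 and an adjusted p of 0.343 by limma with Benjamini-Hochberg adjustment. The Wdr64 counts were 21.1, 23.8, 38.7, 33.8 and 34.2 in adult EH and 51.3, 32.0, 108, 58 and 39.6 in aged EH rats. Of the aged rats, 4 of 5 were above all adult rats, and the LFC was 0.82 (SE 0.285), with an unadjusted p of 0.0126 and an adjusted p of 0.116. Neither gene passed the adjusted threshold of 0.05, which 5.99% of 15369 genes passed. With 1 rat left out in turn, the LFC ranged from -1.31 to -0.57 for Oacyl and from 0.56 to 0.99 for Wdr64, and no adjusted p fell under 0.0678.

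The LFCs of Avp and Oxt were below those of both genes at each age. In adult EH rats 1, 2, 4, 5 and 6 the normalised counts of Avp were 195535, 113731, 167312, 154103 and 188186, and in adult DH rats 1 to 5 they were 190584, 239575, 255875, 217060 and 224042. The DH rats were higher apart from rat 1, which lay below the highest EH rat, and the LFC was 0.48 (adjusted p = 0.0221 by limma). In aged rats the Avp counts were 261426, 173754, 255727, 201249 and 146514 in EH and 196831, 245706, 325751, 223509 and 202861 in DH. These groups overlapped, and the LFC of 0.21 did not pass the test (adjusted p = 0.502).

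Oxt counts were 84742, 80168, 87230, 75114 and 71073 in adult EH rats and 79424, 83807, 110661, 84789 and 92613 in adult DH rats. In aged rats they were 87995, 116817, 92124, 100817 and 100566 in EH and 94681, 120833, 147870, 111878 and 82871 in DH. The groups overlapped at both ages, and the LFCs of 0.17 in adult DH (adjusted p = 0.187) and 0.14 in aged DH (adjusted p = 0.575) did not pass the test in limma. The LFCs of Oacyl and Wdr64 were 2.00 to 3.44 in the same libraries.

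The relation of the genes to Avp and Oxt was examined within groups, so that the dehydration change itself did not enter. Each rat's log2 value was taken as its deviation from the mean of its own group, over 20 rats, and p-values came from 100000 permutations within groups, two-sided, with Benjamini-Hochberg adjustment over 5 relations. Oacyl and Avp had Pearson's r of 0.42 (permutation p = 0.0922, adjusted 0.160) and Spearman's rho of 0.31 (permutation p = 0.231, adjusted 0.385). Both deviated to the same side in 14 of 20 rats. The r fell to 0.18 without adult EH rat 2, the lowest of its group for both genes, and aged DH rat 3, the highest of its group for both. The value of r thus depends on those 2 rats. They were left out as the farthest from the median of the Avp deviations, which narrows the range of Avp and can itself lower r. With 1 rat left out in turn r was 0.27 to 0.53. Within the 10 adult rats r was 0.41 and within the 10 aged rats 0.47, and it was 0.54 over EH rats and 0.24 over DH rats.

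Wdr64 and Avp gave r = 0.48 (permutation p = 0.0958, adjusted 0.160) and rho = 0.36 (permutation p = 0.179, adjusted 0.385), with r = 0.38 without the same 2 rats. Both deviated to the same side in 11 of 20 rats. The r was 0.06 over the adult rats and 0.65 over the aged rats, and 0.52 over EH rats and 0.35 over DH rats. Neither relation with Oxt passed the test. Its r was -0.001 with Oacyl (permutation p = 0.997, adjusted 0.997) and rho -0.18 (permutation p = 0.495, adjusted 0.495). With Wdr64 r was -0.11 (permutation p = 0.650, adjusted 0.813) and rho -0.22 (permutation p = 0.375, adjusted 0.469). Without the 2 rats farthest from the median of Oxt, which were aged DH rats 3 and 6, the values of r became -0.38 and -0.49.

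Oacyl and Wdr64 deviated to the same side in 15 of 20 rats. Their r was 0.38 (permutation p = 0.0761, adjusted 0.160) and rho 0.47 (permutation p = 0.0694, adjusted 0.347), and r was 0.39 without aged EH rats 4 and 2. The r was 0.07 over adult rats, 0.67 over aged rats, 0.24 over EH rats and 0.75 over DH rats. The differences between these subsets were not tested. With 1 rat left out in turn, r was 0.31 to 0.55 (adjusted permutation p 0.0279 to 0.421). The highest r, with the lowest p, came without adult EH rat 4, low for Oacyl and high for Wdr64. Leaving out a rat with such opposite deviations raises r by itself.

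**Figure D3:**
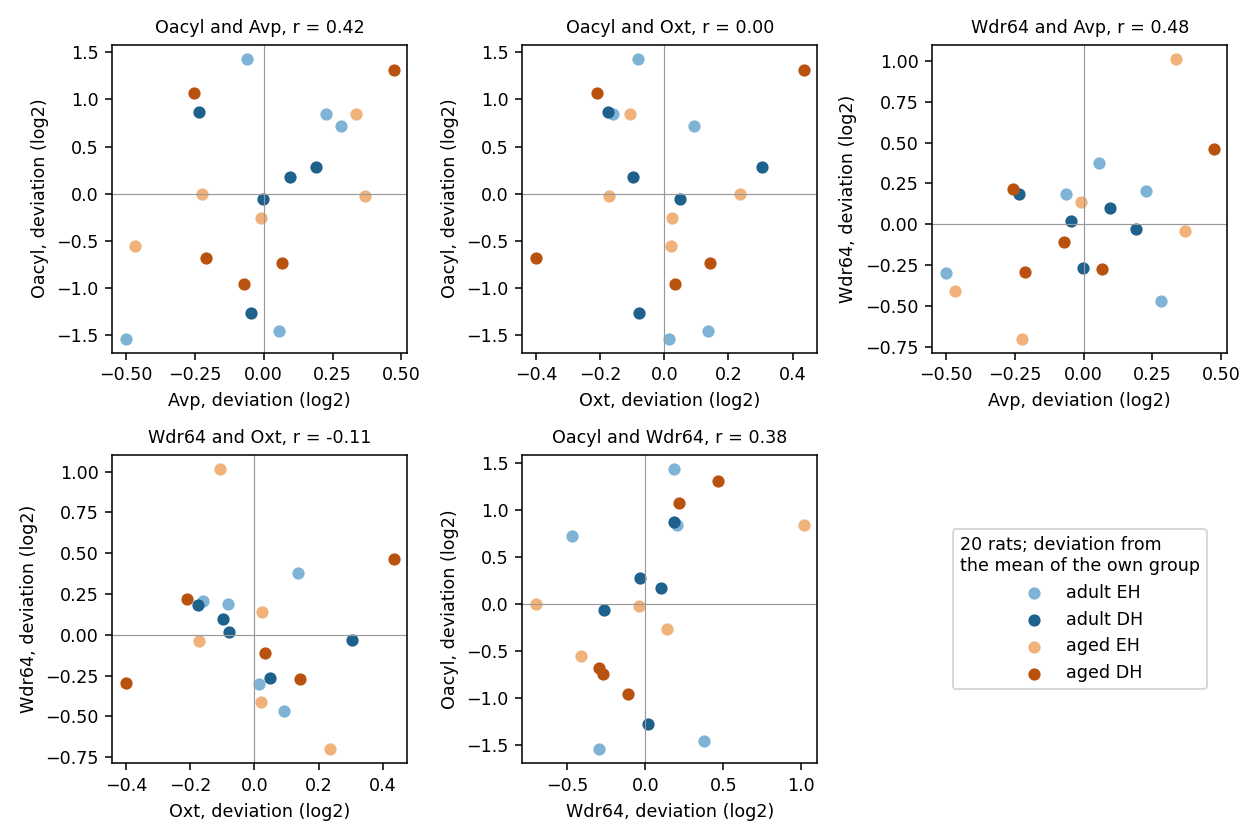
Deviation of each of 20 rats from the mean of its own group (log2), for each of the 5 relations tested, with a colour for each group. Both coordinates have the same sign in 14 of 20 rats for Oacyl and Avp, 11 of 20 for Wdr64 and Avp and 15 of 20 for Oacyl and Wdr64, with r of 0.38 to 0.48, and those against Oxt have r of -0.11 and -0.001.

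Genes with the most similar pattern were sought among 12575 other genes with a symbol and a mean of at least 50, as a description over rats that share libraries. By deviations within groups, the genes most like Oacyl were Trim68, a ubiquitin ligase (r = 0.89), Kpna3, an importin (0.86), Lman1, a cargo receptor of the early secretory pathway (0.78), Lmnb2, a nuclear lamin (0.78), and Uck2, a pyrimidine nucleoside kinase (0.78). Their LFCs with DH lay between -0.09 and 0.35. In limma Lman1 (LFC 0.29, adjusted p = 0.00160) and Uck2 (0.35, adjusted p = 0.0270) rose in adult DH, and none of the 5 was called in aged DH or with ageing. Trim68 had LFCs of -0.03 in adult DH and 0.22 in aged DH, neither past the test.

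The values of Trim68, which was picked for its likeness to Oacyl in these rats, show what this r rests on. In adult EH rats 1, 2, 4, 5 and 6 its normalised counts were 312, 239, 261, 350 and 322, so that rats 2 and 4, the lowest for Oacyl, were also the lowest for Trim68. In aged DH rats 1, 2, 3, 5 and 6 they were 440, 408, 478, 362 and 361, again highest in rats 1 and 3. In aged EH rats they were 368, 374, 393, 315 and 305, with rat 4 the highest for both genes. In adult DH rats 1 to 5 they were 298, 308, 282, 268 and 283, with rat 4 the lowest for both genes, but rat 1, the highest for Oacyl, was not the highest for Trim68.

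The genes most like Wdr64 within groups were Papss2, which makes the sulphate donor PAPS (r = 0.84), Impdh1, of guanine nucleotide synthesis (0.82), Slc35c2 (0.77), Etv5, an ETS transcription factor (0.77), and Alg3, a mannosyltransferase of N-glycan assembly (0.75). Of these, Papss2 and Etv5 also rose with DH by limma. The LFC of Papss2 was 0.59 in adult DH (adjusted p = 2.54e-04) and 0.46 in aged DH (adjusted p = 0.0136). That of Etv5 was 0.79 in adult DH (adjusted p = 2.45e-07) and 0.35 in aged DH (adjusted p = 0.0246), and Etv5 was also higher with ageing (LFC 0.49, adjusted p = 0.00295). Impdh1, Slc35c2 and Alg3 had LFCs of -0.04 to 0.31 in the 2 dehydration comparisons, and none passed the test.

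When the dehydration change was kept in, the lower of the r over the 10 adult and over the 10 aged rats ranked other genes first. For Wdr64 these were Lrp8, a reelin receptor, Creb3l1, a transcription factor of the endoplasmic reticulum membrane known to act on the Avp gene, and Eprs, a tRNA synthetase, each with r = 0.97, then Atf4, the transcription factor of the integrated stress response, and Eaf1, a transcription elongation cofactor, each with r = 0.96. For Oacyl they were Tubb6, a beta-tubulin, Ptpn9, a tyrosine phosphatase, Vcp, an ATPase of protein degradation, Crem, a cAMP-responsive transcription factor, and Fam114a1, each with r = 0.90. The values of r for Oacyl were lower than those for Wdr64. In this order Wdr64 was rank 65 for Oacyl, and Oacyl was rank 230 for Wdr64. Avp was rank 1283 for Oacyl and rank 1126 for Wdr64.

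Genes beside the pair on the chromosome were examined by their order in the RefSeq annotation. Oacyl, on chromosome 18, lies between Alpk2, Malt1 and Zfp532 on one side and Sec11c, Grp and Rax on the other. Of these, 5 had enough counts to be tested, and limma called none in adult DH, aged DH or ageing, whereas 12.7%, 7.29% and 5.99% of all genes tested were called. Zfp532, the nearest on the one side, had counts of 1771 in adult EH and 1720 in adult DH (LFC -0.04, adjusted p = 0.586) and an LFC of -0.05 in aged DH (adjusted p = 0.569). Sec11c, a subunit of the signal peptidase and the nearest on the other side, had LFCs of 0.06 (adjusted p = 0.260) and 0.14 (adjusted p = 0.0829). The LFCs of the 5 genes in the 2 dehydration comparisons ran from -0.26 to 0.14, against 3.35 and 3.44 for Oacyl.

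Lman1, rank 3 by likeness to Oacyl within groups, lies on the same chromosome, 5 named protein-coding genes away, a fact looked up after its likeness was known. In adult EH rats 1, 2, 4, 5 and 6 its normalised counts were 1046, 928, 1013, 1058 and 1072, and in adult DH rats 1 to 5 they were 1315, 1283, 1299, 1160 and 1212. The rats lowest for Oacyl, adult EH rat 2 and adult DH rat 4, were the lowest for Lman1 as well. In aged rats the counts were 1089, 1176, 1201, 1171 and 1059 in EH and 1336, 1206, 1282, 1242 and 1150 in DH. The rats highest for Oacyl in aged DH, 1 and 3, were also the highest for Lman1.

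Wdr64, on chromosome 13, had a neighbour that rose with it. Opn3, which encodes encephalopsin, an opsin-type receptor, is 2 genes away in the order of gene starts and on the opposite strand. Chml comes between them in this order of starts. In adult EH rats 1, 2, 4, 5 and 6 the normalised counts of Opn3 were 402, 308, 502, 416 and 431, and in adult DH rats 1 to 5 they were 1301, 1271, 1570, 1513 and 1531. The lowest DH rat was above 2 times the highest EH rat, and the LFC was 1.81 (SE 0.107, adjusted p = 2.45e-07 by limma). In aged rats the counts were 814, 754, 971 (rat 4), 823 and 499 in EH and 1464, 1493, 1837, 1556 and 1442 in DH, again without overlap, and the LFC was 1.04 (SE 0.134, adjusted p = 6.47e-04).

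Opn3 was also higher in aged EH than in adult EH, with counts of 773 ± 171 against 429 ± 73.2 (SD, n = 5) and an LFC of 0.83 (SE 0.154, adjusted p = 0.00717 by limma). The same LFC for Wdr64 was 0.82, with a larger SE of 0.285 and an adjusted p of 0.116. In order of LFC Opn3 was rank 21 in adult DH and rank 48 in aged DH. Its r with Wdr64 was 0.98 over the 10 adult rats and 0.94 over the 10 aged rats, rank 25 of 12575 genes by the lower of these, and 0.59 within groups (rank 134). Aged EH rat 4 and aged DH rat 3 were the highest of their groups for both genes.

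**Figure D4:**
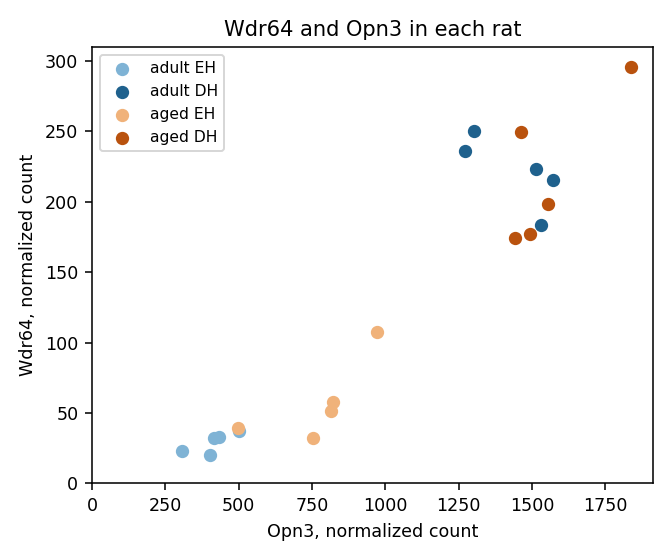
Normalised counts of Opn3 (x) and Wdr64 (y) in each of 20 rats, from the dehydration table of their age, coloured by group. EH rats lie at the lower left, with aged EH rats further out than adult EH rats, and DH rats lie at the upper right.

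Among the other neighbours of Wdr64, Pld5, a member of the phospholipase D family, fell in adult DH (LFC -0.30, adjusted p = 0.0200 by limma) but was not called in aged DH (LFC -0.16, adjusted p = 0.241). Exo1, an exonuclease of DNA repair and the nearest on the other side, had LFCs of 0.94 (adjusted p = 0.0534) and 0.50 (adjusted p = 0.504) at counts of 8.16 to 15.8, too low for a firm value. Kmo, an enzyme of tryptophan breakdown, was higher in aged EH than in adult EH (LFC 1.92, adjusted p = 0.0184), at counts of 16.7 against 3.79. Its LFC in aged DH was -1.59 (SE 0.595, adjusted p = 0.130 by limma), also at low counts, and in adult DH it was not tested. Becn2 was listed at 0, and Chml could not be matched by its gene ID. In the RefSeq annotation Wdr64 also overlaps uncharacterised genes, and the strand setting of the authors' read counting is not given in the sources used here, so reads of overlapping genes may be included in its counts.

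**Figure D5:**
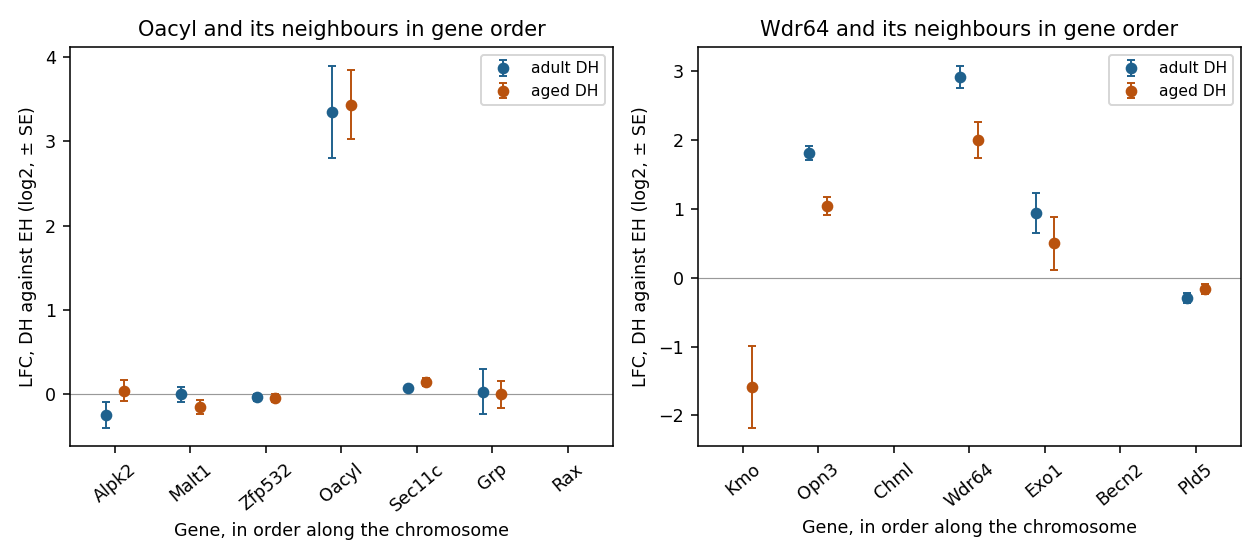
LFC of DH against EH (log2, ± SE) at each age for Oacyl and Wdr64 and the 3 named protein-coding genes on each side, in their order along the chromosome; genes without a point were not tested. Oacyl stands alone at 3.35 and 3.44 among genes near 0, and beside Wdr64 the gene Opn3 stands at 1.81 and 1.04. At low counts, Exo1 stands at 0.94 and 0.50, and Kmo at -1.59 in aged DH.

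Genes related to the pair by name were examined as lists. Of 11 other O-acyltransferases in the deposited data, 9 were tested, and limma called 0 higher and 1 lower in adult DH (median LFC 0.05, all genes -0.01), where 12.7% of all genes were called. The gene called was Hhatl, a relative of the hedgehog acyltransferase, with 428 ± 51.8 in EH and 312 ± 38.5 in DH (SD, n = 5; LFC -0.46, adjusted p = 0.00702). In aged DH none of the 9 was called (median 0.03), where 7.29% of all genes were called. With ageing, Lpcat3, which remodels phospholipids, was lower (LFC -0.19, adjusted p = 0.0220). Porcn, which acylates Wnt proteins, Mboat4, which acylates ghrelin, and Dgat1, of triglyceride synthesis, had LFCs between -0.10 and 0.14 in both dehydration comparisons, none past the test.

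Of the other genes named Wdr with a number, 64 were found in the deposited data. In adult DH 54 were tested, of which 3 were called higher and 4 lower, with a median LFC of -0.01 (12.7% of all genes called, median -0.01). In aged DH 55 were tested, with 1 higher and 3 lower and a median of -0.03 (7.29% of all genes called, median -0.003). The LFCs of those called were from -0.25 to 0.18, and those of all tested from -0.37 to 0.40 over both comparisons. Wdr1, a cofactor of actin disassembly, rose at both ages (LFC 0.15, adjusted p = 0.00426, and 0.12, adjusted p = 0.0474), and Wdr11 and Wdr13 fell at both. With ageing 2 of 55 were lower, where 5.99% of all genes were called. They were Wdr86 (LFC -1.38, adjusted p = 0.00236) and Wdr6 (-0.12, adjusted p = 0.0473).

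Transcription factors known to follow neuronal activity were examined as a further list, chosen like the others with earlier results of these data known. Of 18, limma called 7 higher and 0 lower in adult DH (median LFC 0.40), where 12.7% of all genes were called with a median LFC of -0.01. In aged DH 5 were higher and 1 lower (median 0.10), where 7.29% of all genes were called with a median of -0.003. Fosl1 rose from 20.2 ± 8.67 to 211 ± 22.1 normalised counts in adult DH (SD, n = 5; LFC 3.40, adjusted p = 4.87e-07) and had an LFC of 1.88 in aged DH (adjusted p = 1.70e-04). It was also higher with ageing in EH rats (LFC 1.39, adjusted p = 0.0121). Creb3l1 rose from 561 ± 90.2 to 2107 ± 280 in adult DH (LFC 1.91, adjusted p = 2.32e-07) and from 858 ± 254 to 2069 ± 379 in aged DH (LFC 1.30, adjusted p = 7.76e-04).

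Fos, the immediate early gene used as a marker of neuronal activation, rose in adult DH (LFC 1.13, adjusted p = 0.00251), and its LFC of 0.78 in aged DH did not pass the test (adjusted p = 0.0740). Nr4a1 likewise rose in adult DH (LFC 1.25, adjusted p = 0.00115) and was not called in aged DH (LFC 0.54, adjusted p = 0.198). Fosl2, Jund and Crem rose at both ages, with LFCs of 0.23 to 0.59. Egr4 fell in aged DH (LFC -1.0, adjusted p = 0.0114). Egr1, Egr2, Egr3, Fosb, Junb, Jun, Atf3, Npas4, Nr4a2 and Nr4a3 were not called at either age, and their LFCs ran from -0.71 to 0.84. The LFCs of Fosl1, Creb3l1 and Opn3 had a lower value in aged than in adult rats, and none of these differences was called. That of Wdr64 was also lower in aged rats, a difference given no test.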

How the data were processed

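Poly(A) RNA of SON punches from 20 rats, 5 in each group by the labels, was sequenced by the authors with 75 bp paired-end reads. They aligned reads to rat assembly Rn6 with STAR and counted them per gene with featureCounts with versions not given in the sources used here. Each of the 30 per-sample columns in the 3 deposited tables holds a signal, which is the read count divided by a DESeq2 (version 1.28.1) size factor. Columns with the authors' own fold changes and p-values were not used. The genes and lists were chosen with earlier results of these data known.

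Values were taken as log2(normalised count + 1). Genes whose mean in a comparison reached 10 entered a two-sided limma test (3.58.1, R 4.3.3) with a trend on the mean. P-values were adjusted by Benjamini-Hochberg across every gene tested, and the threshold was 0.05. The difference between the ages was fitted over 20 rats, each from the dehydration table of its age. No p is given for the dehydration changes of Oacyl and Wdr64, which chose them. Since the tables were scaled separately, levels set across tables carry that limit. In each comparison 100% of values were whole multiples of 1 step within 0.1 step. Count models (edgeR 4.0.16 and DESeq2 1.42.0) were run as alternatives for adult DH only. The fits were tested on simulated data. The limma p-values set the differences between groups against the spread between these rats. Those of the correlations came from shuffling rats within groups. No 2 libraries held the same values.

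Genes were named by rule: the pair, Avp, Oxt, the 3 nearest named protein-coding genes on each side, members of the lists reported, the 5 most alike by each measure, and neighbours in order of LFC. Likeness used genes with a mean of at least 50 in both dehydration tables. Marker lists for astrocytes, oligodendrocytes, microglia, endothelium and ependyma gave 0 to 1 genes called per dehydration comparison. Of all genes tested, 12.7% were called in adult DH and 7.29% in aged DH. With ageing, 2 of 6 astrocyte, 4 of 6 oligodendrocyte and 2 of 5 endothelial markers were lower, and 3 of 6 microglial markers were higher. No ependymal marker was called, and 5.99% of all genes tested were called with ageing. Alternatives changed the pseudocount, filter, scaling, count model and replicate block, and left out each rat in turn. Counting error from reads covers counting alone. Figures were drawn with matplotlib 3.10.9.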

Additional observations from a re-analysis of the deposited data

Results flagged for a closer look

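The Oacyl count of aged EH rat 4 lay apart from the other 4 rats of its group. It was 271 normalised counts in both tables that hold this library, against 103 to 151 for the others, and the gap to its nearest neighbour was 0.715 of the range of the group in the ageing table and 0.714 in the aged DH table, above Dixon's 95% critical value for 5 samples (0.71). In all, 24 sets of a gene, group and table were tested for Oacyl, Wdr64, Avp and Oxt, and chance flags about 1 in 20. The 2 flags are the same library.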

How the results depend on the processing

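The signs of all dehydration LFCs of Oacyl and Wdr64 held under every alternative run. Since every DH rat lay above every EH rat, leaving out a rat could not have changed them. With each rat left out in turn, the LFC of Oacyl was 2.97 to 3.71 in adult DH and 3.11 to 3.68 in aged DH, and that of Wdr64 was 2.80 to 3.01 and 1.83 to 2.26. Their difference between the ages was -0.27 to 0.47 for Oacyl and -1.09 to -0.66 for Wdr64. A pseudocount of 10 lowered the adult DH LFC of Wdr64 to 2.58, since its EH counts are of that order. On recovered reads the adult DH LFC was 3.06 in edgeR and 3.05 in DESeq2 for Oacyl, and 2.93 in both for Wdr64. edgeR called 1939 and DESeq2 2245 genes in adult DH, where limma called 1934.

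Numbers of genes called by limma, with 1 rat left out, ran from 594 to 906 in ageing (921 with all rats), 1463 to 1743 in adult DH, 678 to 1186 in aged DH (1119 with all rats) and 0 to 5 for the difference between the ages. The lowest were 599 without aged EH rat 4 and 594 without adult EH rat 5 in ageing, and 679 without aged EH rat 5 and 678 without aged DH rat 5 in aged DH. With the replicate block limma called 987 genes in adult DH, 653 in aged DH and 1 for the difference between the ages. The deviations of same-number rats had weak correlations (-0.08 to 0.16). Rats of different number were not compared in this way, so whether the numbers mark a shared handling was not tested.

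The relations with Oxt had no stable sign. That of Oacyl was 0.0041 with a pseudocount of 10, 0.010 with libraries rescaled to the same total, 0.22 over aged rats, 0.25 over DH rats, and -0.277 to 0.0884 with 1 rat left out. That of Wdr64 was 0.30 over DH rats and -0.366 to 0.0481 with 1 rat left out. For Oacyl and Wdr64 in turn, r with Oxt was -0.43 and -0.53 over EH rats and -0.27 and -0.31 over adult rats. The difference between EH and DH rats was not tested. With 1 rat left out, r was 0.27 to 0.53 for Oacyl and Avp, 0.37 to 0.61 for Wdr64 and Avp, and 0.31 to 0.55 for Oacyl and Wdr64, the highest (adjusted p = 0.0279) without adult EH rat 4. The causes were not tested. Depth limits Wdr64 in adult EH, at 21 to 40 reads.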
